A study of Macaca fascicularis and Macaca mulatta and Papio anubis with 20 samples.

Results

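Genes of tissue macrophages were followed through spatial gene counts of dorsal root ganglia, where the cell bodies of sensory neurons sit outside the spinal cord. The members were taken by symbol from a list of 10 (CD68, CD163, CSF1R, AIF1, TYROBP, C1QA, C1QB, CD74, CD180 and PLD4). Of these, 9 were among the 17820 symbols of the series' 3 feature tables and TYROBP, the signalling adaptor also called DAP12, was in none of them. The M. fascicularis table held 8 members (no C1QB), the table of the sections labelled M. mulatta held 8 (no AIF1) and that of the sections labelled P. anubis held 8 (no C1QA). All 3 tables shared 6 members, namely CD68, CD163, CSF1R, CD74, CD180 and PLD4.

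Macrophages are resident phagocytes that live in the ganglion around the neurons and their satellite glia, along vessels and in the nerve fibre tracts. They clear debris, present antigen to T cells and multiply after nerve injury, with CSF1 or IL34 acting on the receptor CSF1R as their survival signal. CD163 is their scavenger receptor for haemoglobin bound to haptoglobin, C1QA and C1QB are chains of the first complement component, and CD74 is the invariant chain that escorts MHC class II molecules. AIF1, also called IBA1, is an actin-binding protein widely used to stain microglia and macrophages, and CD68 is a lysosomal membrane glycoprotein.

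The assay was Visium, in which spots under a tissue section capture its messenger RNA with a spot barcode, and molecules are told apart by a random tag, the unique molecular identifier (UMI). The study has 20 fresh-frozen sections of 10 μm, cut 100 μm apart, from 6 title codes, each taken here as 1 specimen. Macaca fascicularis has 4 specimens with 4 sections each: a female and a male of labelled batch 1, and a female and a male of labelled batch 2. A further specimen labelled Macaca mulatta and one labelled Papio anubis have 2 sections each, with no labelled sex and batch 2 as their batch. No treatment, strain, age or ganglion level is labelled, so each sex within a batch rests on 1 specimen, and sections of a specimen share its tissue. Labels and identifiers disagreed for the latter 4 sections: those labelled M. mulatta carry P. anubis gene identifiers (ENSPANG) and those labelled P. anubis carry M. mulatta identifiers (ENSMMUG). They are therefore called only by their label here. No sequence is printed.

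Each M. fascicularis section held 1136433 to 7073134 UMIs in its tissue spots, with medians of 398 to 5145 UMIs per tissue spot. The sections labelled M. mulatta were shallow (190376 and 264661 UMIs, medians of 61 and 62 UMIs per spot), and those labelled P. anubis held 595020 and 12595205 UMIs. The spots of the male batch 2 section 3 were not analysed here, so it entered through its gene totals alone, and 15 M. fascicularis sections had spots. Levels below are UMIs per 1000000 UMIs of a section's tissue spots (CPM). Neuron genes of a list of 15 (13 measured) summed to 21667 to 35966 CPM in every M. fascicularis section with spots. In these sections 38 measured macrophage genes other than the members summed to 1394 to 1847 CPM in batch 1 and 682 to 1325 CPM in batch 2. RNA of both gene lists was thus counted in each of them. A spot can hold several cells, and fewer macrophages cannot be told apart from less RNA per macrophage.

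In M. fascicularis the 8 measured members did not move as a block. CD163 was higher in batch 2 than in batch 1 and AIF1 was lower, CD180 and PLD4 had 1 UMI each in batch 2, and CD68 and C1QA levels overlapped. Summed over the 8 genes the level was 1837 ± 257 CPM (SD, n = 4 sections) in the female and 1682 ± 267 (SD, n = 4) in the male of batch 1. In batch 2 the female had 1088 ± 19.5 (SD, n = 4) and the male 608 ± 161 (SD, n = 4). CD74 made up most of that sum in all specimens but the batch 2 male, and without it the sums were 353 ± 43.6, 330.03 ± 64.9, 388 ± 25.5 and 439 ± 105 CPM in the same order (SD, n = 4 each), and the ranges of the batches overlapped.

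**Figure D1:**
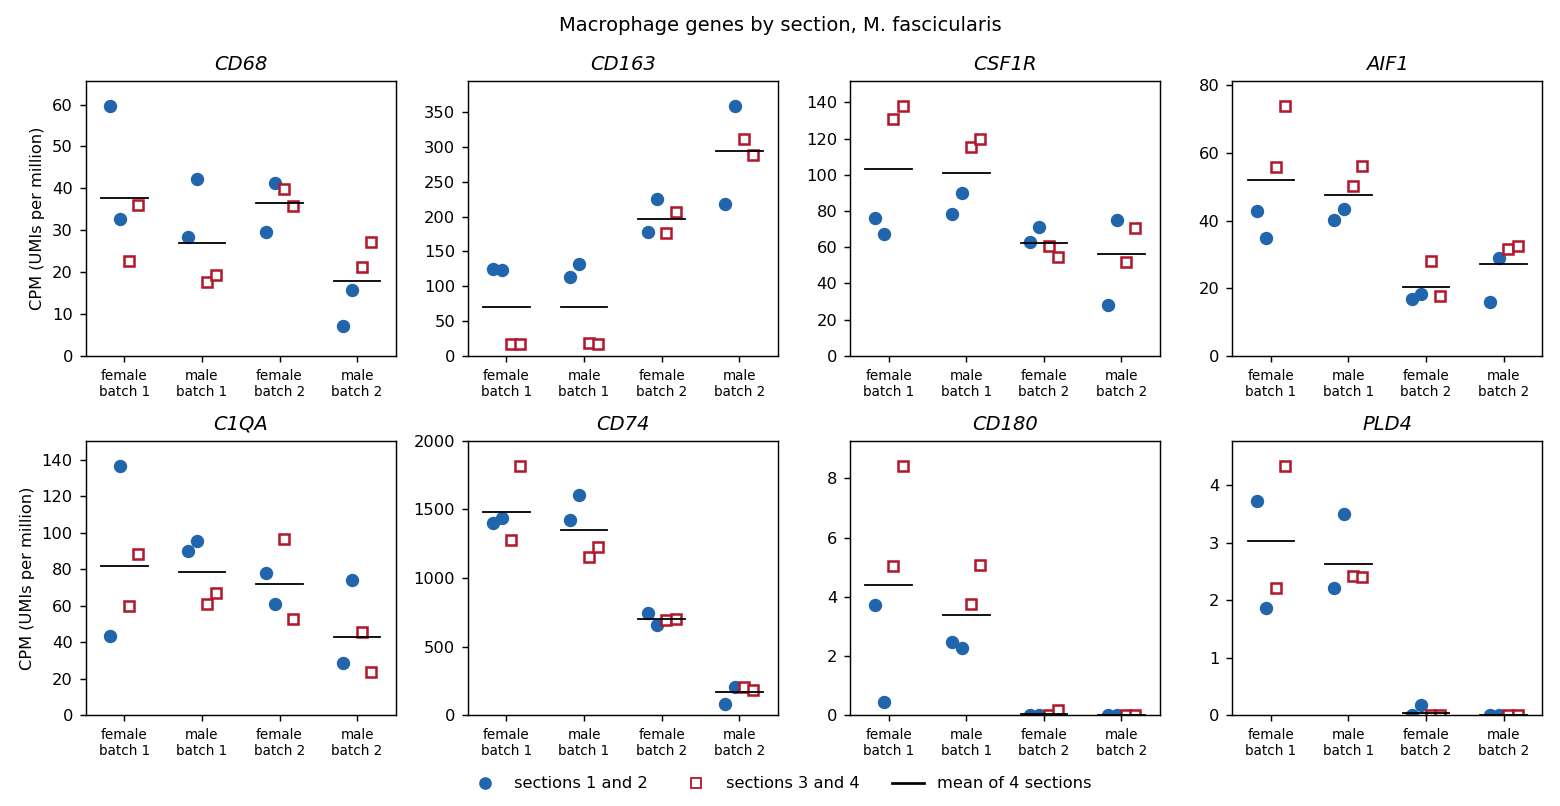
Level of each of the 8 measured members (CPM, y axis from 0) in every section of the 4 M. fascicularis specimens (x axis), with sections 1 and 2 as filled circles, sections 3 and 4 as open squares and the mean of 4 sections as a bar. CD163 lies between 16.5 and 132 CPM in batch 1, in separate bands by section number, and between 177 and 359 CPM in batch 2, while CD74 runs the other way.

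The scavenger receptor CD163 was uneven within batch 1. In the female of batch 1 it stood at 125, 123, 17.2 and 17.6 CPM in sections 1 to 4, and in the male at 114, 132, 18.02 and 16.5 CPM. In batch 2 the female sections held 179, 225, 177 and 207 CPM and the male sections 218, 359, 312 and 289 CPM. All 8 batch 2 sections therefore lay above all 8 batch 1 sections, and within batch 1 sections 3 and 4 of both specimens lay far below sections 1 and 2.

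CD163 averaged 124 ± 7.63 CPM (SD, n = 4) in sections 1 and 2 of batch 1 against 17.3 ± 0.634 (SD, n = 4) in sections 3 and 4, a ratio of 7.12. Of the 8054 features with a mean of at least 10 CPM in batch 1, 18 (0.223%) differed by at least 4-fold between these section pairs with no overlap, and CD163 had the 6th lowest ratio. The gap was also present in spots thinned to 500 UMIs, where 5.03% to 6.70% of spots held a CD163 UMI in sections 1 and 2 and 0.748% to 1.24% in sections 3 and 4. In batch 2 the same section pairs averaged 245 ± 78.5 and 246 ± 64.5 CPM (SD, n = 4 each), and no member of at least 10 CPM split without overlap, as 1.25% of 7751 features did (0.735% lower and 0.516% higher in sections 3 and 4). The library names number sections 1 and 2 of both specimens before sections 3 and 4, so section position and library set cannot be told apart.

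Not all members followed CD163 across these section pairs. CSF1R, the colony-stimulating factor receptor, went from 78.1 ± 9.31 CPM (SD, n = 4) in sections 1 and 2 of batch 1 to 126 ± 10.3 (SD, n = 4) in sections 3 and 4, and AIF1 from 40.4 ± 3.89 to 59.0 ± 10.2 (SD, n = 4 each). Both were higher in every section 3 and 4 than in any section 1 and 2. Such a split without overlap was common in batch 1, at 19.7% of the 8054 features (8.69% higher and 11% lower in sections 3 and 4), and 3 of 6 members of at least 10 CPM showed it. CD68, C1QA and CD74 overlapped between the pairs. Among the 27 other macrophage genes with at least 10 CPM, 4 were higher and 3 lower without overlap, and the median ratio of sections 3 and 4 over 1 and 2 was 1.08, against 0.982 over all 8054 features. The split was seen in the values and was given no test.

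Across batches, CSF1R held 76.4, 67.4, 131 and 138 CPM in the female and 78.4, 90.0, 115 and 120.03 CPM in the male of batch 1. In batch 2 it held 62.8, 71.3, 60.6 and 54.5 CPM in the female and 28.3, 75.1, 51.8 and 70.4 CPM in the male. The batches overlapped, since the lowest batch 1 section lay below 3 of the batch 2 sections.

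AIF1 stood at 42.9, 34.9, 55.9 and 73.9 CPM in the female and 40.3, 43.4, 50.3 and 56.0 CPM in the male of batch 1. The batch 2 values were 16.7, 18.4, 28.0 and 17.8 CPM in the female and 15.8, 28.9, 31.6 and 32.6 CPM in the male. Every batch 2 section lay below every batch 1 section. CD68, the lysosomal glycoprotein, gave 59.6, 32.8, 22.7 and 36.0 CPM in the female and 28.4, 42.3, 17.8 and 19.4 CPM in the male of batch 1, and 29.5, 41.3, 39.8 and 35.7 CPM in the female of batch 2. The male of batch 2 held 7.14, 15.8, 21.2 and 27.3 CPM, which included the lowest value of the 16 sections.

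C1QA, a chain of the complement recognition molecule, was 43.5, 137, 59.8 and 88.4 CPM in the female and 90.01, 95.8, 61.3 and 66.9 CPM in the male of batch 1. It was 78.3, 61.1, 96.6 and 52.7 CPM in the female and 28.9, 74.1, 45.9 and 23.8 CPM in the male of batch 2. The batches overlapped, with 2 male sections of batch 2 below the lowest of batch 1 and 1 female section of batch 1 above all of batch 2.

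CD74 separated the specimens most clearly. Batch 1 held 1401, 1438, 1278 and 1818 CPM in the female and 1419, 1605, 1156 and 1226 CPM in the male. The female of batch 2 held 743, 655, 698 and 702 CPM and the male 82.6, 204, 205 and 184 CPM. The specimens of batch 1 overlapped, the female of batch 2 lay below both, and the male of batch 2 lay below the rest.

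CD180, a Toll-like receptor homologue that restrains TLR4 signalling, and PLD4, an endolysosomal exonuclease that limits nucleic acid sensing by Toll-like receptors, were sparse. In M. fascicularis CD180 was counted 145 times in batch 1 and once in batch 2, and PLD4 97 times and once. The batch 1 sections ranged from 0.468 to 8.43 CPM for CD180 and from 1.87 to 4.34 CPM for PLD4, and the 1 UMI of each in batch 2 lay in a female section. Per UMI the M. fascicularis ratio of batch 1 over batch 2 was 111 for CD180 (95% interval 19.7 to 4423) and 74.4 for PLD4 (13.04 to 2969), intervals that cover counting error only. Batch 2 sections of the other labels were not as empty. Those labelled P. anubis held 28 UMIs of CD180 and 23 of PLD4 (means of 3.51 and 3.31 CPM). Those labelled M. mulatta held 1 and 10 UMIs. The batch difference in M. fascicularis was among the earlier results from which the genes were chosen, and it is given as a description.

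The batches were compared in a fit of counts summed per specimen over all features, with sex as a covariate (edgeR quasi-likelihood test, Benjamini-Hochberg adjusted). Of 12650 features tested, 364 (2.88%) passed an adjusted p of 0.05, 1.26% being higher and 1.61% lower in batch 2, and of the 8 members 4 passed, 1 higher and 3 lower. Of these 4, CD180 and PLD4 were chosen with their batch difference known, so their calls support nothing and are given without a p-value. CD163 rose by 2.11 on the log2 scale (SE 0.22, edgeR adjusted p = 0.00453). The log2 fold changes were -6.49 for CD180 (SE 0.88) and -5.87 for PLD4 (SE 0.93). These sizes depend on the fit's prior count because batch 2 of M. fascicularis held 1 UMI of each. AIF1 fell by 1.08 (SE 0.23, edgeR adjusted p = 0.0495), just inside the threshold.

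The remaining members did not pass this test. Their log2 fold changes were -1.98 for CD74 (SE 0.51, edgeR adjusted p = 0.0916), -0.81 for CSF1R (SE 0.22, edgeR adjusted p = 0.101), -0.45 for C1QA (adjusted p = 0.386) and -0.16 for CD68 (adjusted p = 0.831). The median over the 8 members was -0.95, against -0.01 over all features, but it includes CD180 and PLD4, chosen with their batch difference known. Section levels of 5 members did not overlap between batches (CD163, AIF1, CD74, CD180 and PLD4), 1 higher and 4 lower in batch 2, as for 7.26% of the 14197 features with at least 10 UMIs (2.35% higher, 4.9% lower). For CD180 and PLD4 this too is a description, for the same reason. CD163 passed with a log2 fold change of 1.07 when batch 1 was represented by its sections 1 and 2 alone (edgeR adjusted p = 0.0421). With sections 3 and 4 alone the log2 fold change was 3.89. That split was made after the low CD163 values of sections 3 and 4 were seen. The larger change was thus set in advance and is a description.

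The AIF1 call was the least secure. It was lost when any 1 of 7 sections was left out (section 3 of the batch 1 female, 3 and 4 of the batch 1 male, 2 and 4 of the batch 2 female, and 1 and 2 of the batch 2 male), with edgeR adjusted p up to 0.131. It was also lost without sex as a covariate (edgeR adjusted p = 0.0508) and without the female (0.312) or male (0.234) of batch 1, while over all sections and specimens left out the log2 fold change stayed between -1.18 and -0.93. With sections 1 and 2 alone for batch 1 it was -0.69 (edgeR adjusted p = 0.181). Without section 1 or section 2 of the batch 2 male, CD163 and CD180 were the only members called, among 115 and 120 features. CD74 did not pass in DESeq2 either (adjusted p = 0.325) but passed in limma-voom (adjusted p = 0.0291). Its size depended on the batch 2 male: the log2 fold change was -0.83 without that specimen and -3.15 without the batch 2 female, and that of CD68 was 0.52 and -0.90. Fits without a specimen had no sex term and left 1 specimen in a batch, which was assumed to vary like the pair of the other batch. Without the batch 2 male or female they called 6849 and 4756 features and 7 and 8 members, and no p-value is given from these 2 fits.

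**Figure D2:**
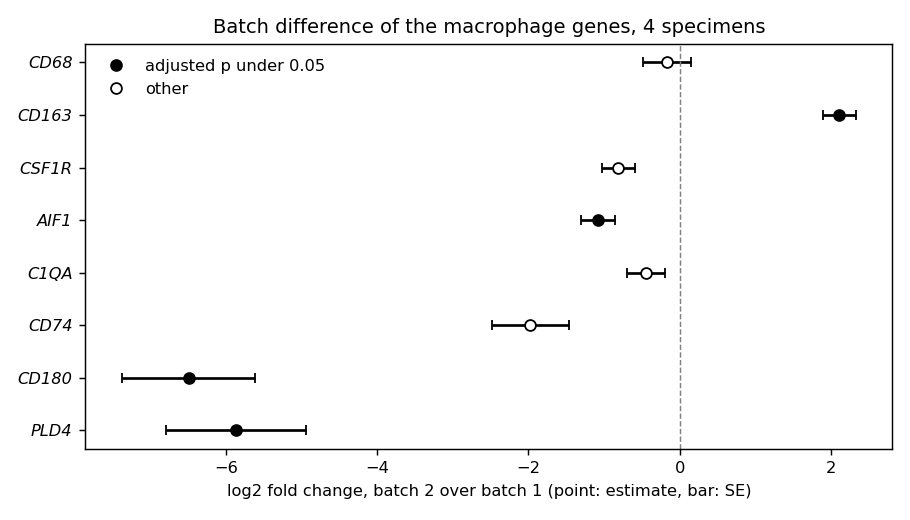
Log2 fold change of batch 2 over batch 1 for the 8 measured members (x axis, estimate and SE from the edgeR fit of 4 specimens), filled where the adjusted p is under 0.05 (CD180 and PLD4 are a description, having been chosen with this difference known). CD163 is the single member above 0 and CD180 and PLD4 lie lowest, at -6.49 and -5.87.

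Related genes were read from lists. Of 37 tested macrophage genes outside the members, 1 was higher and 7 lower in batch 2, with a median log2 fold change of -0.37. RNASE6, a secreted ribonuclease of myeloid cells, fell by 4.12 on the log2 scale (SE 0.33, edgeR adjusted p = 0.00127). CX3CR1, the fractalkine receptor, fell by 4.52 (SE 0.53, edgeR adjusted p = 0.00688), and TREM2, a lipid-sensing receptor that signals through TYROBP, fell by 2.19 (SE 0.36, adjusted p = 0.0230).

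The partners of CD74 followed it in part. Of 15 tested genes of MHC class II presentation, 3 were lower in batch 2 and none higher, with a median of -0.85: HLA-DQA1 fell by 3.03, HLA-DRA by 2.83 and HLA-DOA by 2.99 on the log2 scale (edgeR adjusted p = 0.0166, 0.0329 and 0.0453). In the receptor axis of CSF1R, 1 of 6 tested genes passed, the ligand CSF1, which rose by 1.83 on the log2 scale (SE 0.38, edgeR adjusted p = 0.0494). Among the complement genes, CFB, the protease of the alternative pathway, rose by 2.41 on the log2 scale (SE 0.32, edgeR adjusted p = 0.0109). None of 15 tested Toll-like receptor partners of CD180 and PLD4 passed in edgeR (median log2 fold change -0.11).

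Of 17 tested genes of scavenging and lysosomes, the setting of CD163 and CD68, 3 fell in batch 2 and none rose. The log2 fold changes were -2.38 for CD36, a fatty acid and lipoprotein receptor, -1.496 for CTSZ, a lysosomal protease, and -1.48 for STAB1, a clearance receptor (edgeR adjusted p = 0.0166, 0.0183 and 0.0287).

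Marker lists of other cells also moved with the batch. Of 11 tested connective tissue genes 7 were lower in batch 2, with section sums of 1310.1 to 4330 CPM in batch 1 and 280.2 to 1486 CPM in batch 2. The 10 measured markers of dendritic cells, which also carry MHC class II and CD74, summed to 37.4 to 71.4 CPM in batch 1. In batch 2 they summed to 8.40 to 31.1 CPM without overlap, and 1 of 3 tested was lower, CD1C, a lipid-presenting molecule. This sum was mainly TCF4 and FLT3, with 1034 and 437 UMIs in batch 1 against 68 of CD1C and at most 5 of any other dendritic marker. It is therefore no measure of the number of dendritic cells. Of 4 tested mast cell markers 1 was lower (sums of 12.4 to 56.2 against 3.52 to 22.5 CPM), as were 2 of 12 myelin genes (3362 to 9312 against 1955 to 3613 CPM) and 3 of 7 smooth muscle genes (174 to 990 against 89.5 to 250.3 CPM). The mast cell sum was mainly KIT, with 1074 UMIs in batch 1 against at most 76 of any other mast cell marker. The 10 adipocyte markers summed to 1015 to 1580 CPM in batch 1 and 2271 to 5942 CPM in batch 2. In immune lists whose sums overlapped, 12 measured T and NK cell markers summed to 42.8 to 83.2 CPM in batch 1 and 20.8 to 59.8 CPM in batch 2, 12 granulocyte markers to 17.4 to 148 and 45.1 to 671 CPM, and 11 B and plasma cell markers to 16.4 to 36.4 and 7.88 to 32.8 CPM. The part of these cells, and of the Space Ranger version that went with the batch, in the members' differences was not tested.

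Between the sexes no member passed after adjustment over all features, which does not show that the levels were equal. The edgeR test called 0 of 12650 features (0%), with 169 at an unadjusted p under 0.05, and 0 of the 8 members. CD74 had a log2 fold change of -1.22, male over female (SE 0.50, unadjusted p = 0.0409), and CD68 -0.83 (SE 0.32, unadjusted p = 0.0316), both with an edgeR adjusted p of 0.998. Within batches, the female over male ratio of CD74 was 1.09 in batch 1 and 4.51 in batch 2, and that of CD68 was 1.21 and 2.41, where the difference between batches was not tested. DESeq2 and limma-voom also called no member.

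Spatial position was read from the spots with at least 200 UMIs. In each section, the 25% of spots with the highest share of UMIs in a list of neuron genes were called neuron-high, and the same was done with lists of myelinating Schwann cell and connective tissue genes. In the edgeR fits below, only 7 of the 13 neuron genes were higher in neuron-high spots and 2 were lower (median log2 fold change 0.24). All 12 tested myelin genes and all 12 connective genes were higher in their own class (medians 3.34 and 3.93). The neuron-high class is thus the least sharp of the 3. Neuron-high spots were deeper, with section medians of 977 to 11969 UMIs against 415 to 4956.5 in the other spots. Myelin-high spots were shallower than the rest in every section, with section medians of 331.5 to 1172 UMIs against 1053 to 9970. Connective-high spots had section medians of 340 to 1600.5 UMIs against 772.5 to 9970. They were shallower in all sections but section 4 of the batch 2 male (1076.5 against 772.5 UMIs).

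As a share of UMIs (CPM), 6 of the 8 members were lower in neuron-high spots than in other spots. In this fit with specimen as a block, 5093 of 12110 features (42.1%) passed, 20% of those tested being higher and 22% lower, so a call was common in this comparison. C1QA stood at 67.5 against 97.9 CPM in the female and 56.5 against 94.04 in the male of batch 1, and at 54.0 against 89.4 in the female and 28.9 against 47.1 in the male of batch 2. It was lower in neuron-high spots in all 4 specimens and fell by 0.59 on the log2 scale (SE 0.07, edgeR adjusted p = 6.56e-06).

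The other called members fell by smaller amounts, CD68 by 0.53 (SE 0.10), CD74 by 0.48 (SE 0.08), AIF1 by 0.42 (SE 0.13), CSF1R by 0.39 (SE 0.07) and CD163 by 0.36 (SE 0.07) on the log2 scale, with edgeR adjusted p between 0.000145 and 0.0153. All of these were lower in all 4 specimens except AIF1, which was higher in neuron-high spots of the batch 2 male (29.5 against 19.8 CPM). AIF1 was also the member whose call was lost without the female of batch 1 (edgeR adjusted p = 0.109) or of batch 2 (adjusted p = 0.0508), and in DESeq2 (adjusted p = 0.135). CD180 and PLD4 did not pass. The median over the 8 members was -0.41, against -0.04 over all features.

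Per spot the direction was the opposite in most specimens, and neuron-high spots held 5913 UMIs on average against 2394 in other spots. CD163 gave 303 UMIs per 1000 neuron-high spots against 212 per 1000 other spots in the female of batch 1, 389 against 200 in the male, 1056 against 453 in the female of batch 2 and 515 against 482 in the male. The mean ratio over specimens was 1.69 ± 0.558 for CD163, 1.67 ± 0.481 for CSF1R and 1.56 ± 0.374 for CD74 (SD, n = 4 each). CD68 and C1QA were above 1 in 3 of 4 specimens, the exception being the batch 2 male, at 0.750 and 0.776. The 6 called members thus made up a smaller share of the UMIs of neuron-high spots, with more UMIs per spot in 3 or 4 of 4 specimens.

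With distance from the neuron-high spots the summed level of the 8 genes went from 1408 CPM in them to 2130.3 CPM in the spots next to them in the female of batch 1. The same step was 1340.2 to 1895 CPM in the male of batch 1, 831 to 1368 CPM in the female of batch 2 and 479 to 582 CPM in the male of batch 2. All 4 specimens were higher in the adjoining spots, and at 3 or more spots away the sums were 1890, 1917, 1551 and 520 CPM. Per 1000 spots the sums were lower at each step in 3 specimens, from 10155, 9130 and 5386 UMIs in neuron-high spots to 2560, 2197 and 953 UMIs at 3 or more spots, and in the batch 2 male they were 1016, 1021, 941 and 583. The mean of the section medians of UMIs per spot was lower too at 3 or more spots than in neuron-high spots, at 917 against 6213 in the batch 1 female and 509.5 against 1445 in the batch 2 male.

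**Figure D3:**
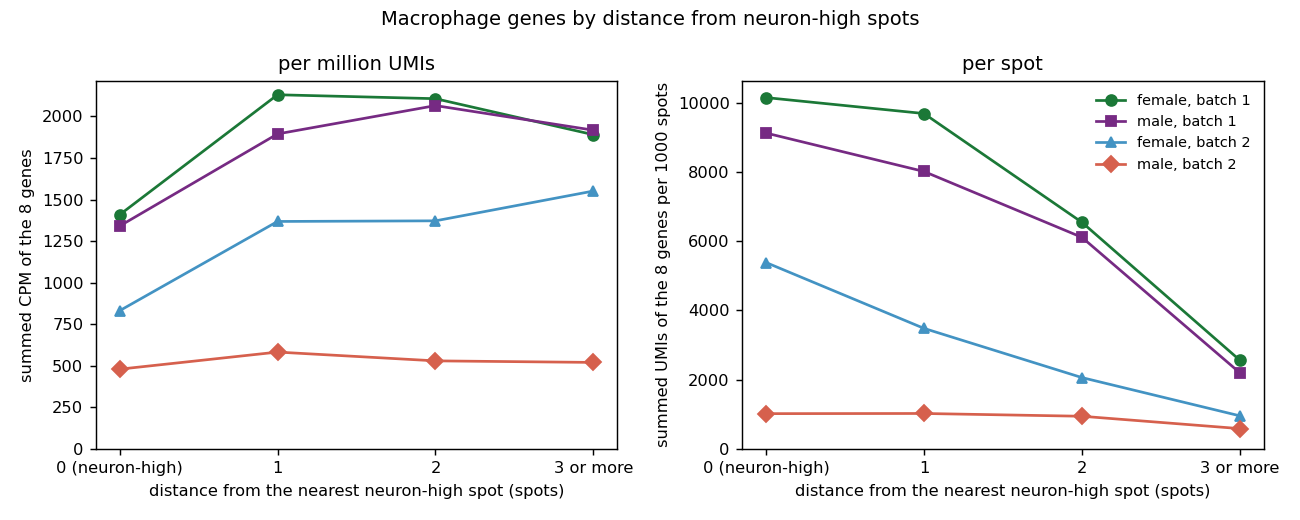
Summed level of the 8 members by distance in spots from the nearest neuron-high spot (x axis), as CPM (left) and per 1000 spots (right, UMIs), 1 line per M. fascicularis specimen. Left, all 4 lines step up from neuron-high to adjoining spots (1408 to 2130.3 CPM in the batch 1 female), and right, they end lower than they start.

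In myelin-high spots none of the 7 members tested passed in edgeR, where 3733 of 10970 features (34%) did (17.4% higher, 16.6% lower). AIF1 and C1QA came nearest, with log2 fold changes of 0.33 and 0.31 (unadjusted p = 0.0473 and 0.0442, edgeR adjusted p = 0.110 and 0.104), and they were the only members at an unadjusted p under 0.05. With spots of at least 1000 UMIs, CD163 and C1QA passed and were higher as a share of UMIs, with log2 fold changes of 0.45 and 0.44 (edgeR adjusted p = 0.0191 and 0.0162). DESeq2 called none. Per spot, among spots with at least 200 UMIs, CD163 and C1QA were lower in myelin-high spots of all 4 specimens. Their mean ratios were 0.237 ± 0.113 and 0.274 ± 0.132 (SD, n = 4 each). CD68, CSF1R, AIF1 and CD74 were also lower per spot in all 4 specimens.

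In connective-high spots 2 of 7 tested members passed, both higher, against 3279 of 11094 features (29.6%; 16.5% higher and 13.1% lower). CD68 stood at 44.0 against 31.0 CPM in the female and 38.3 against 25.4 in the male of batch 1, and at 85.1 against 34.4 in the female and 20.7 against 11.2 in the male of batch 2. It was higher in connective-high spots of all 4 specimens and rose by 0.82 on the log2 scale (SE 0.19, edgeR adjusted p = 0.00688). CSF1R rose by 0.52 (SE 0.16, edgeR adjusted p = 0.0303) and was higher in all 4 specimens as well, but its call was lost without the batch 1 female (edgeR adjusted p = 0.0722), the batch 1 male (0.116) or the batch 2 female (0.111). Per spot, CSF1R was lower in connective-high spots of all 4 specimens, with a mean ratio of 0.457 ± 0.239 (SD, n = 4), and CD68 in 3 of 4.

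**Figure D4:**
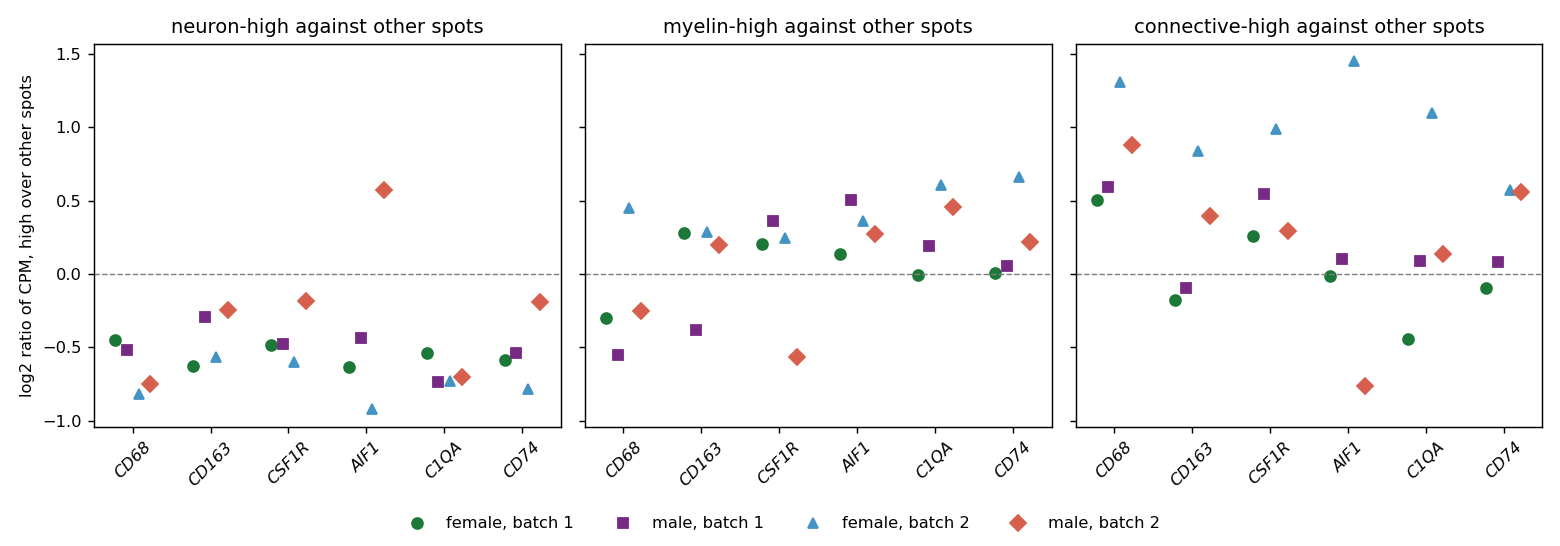
Log2 ratio of CPM in neuron-high, myelin-high and connective-high spots over the other spots (y axis) for 6 members (x axis), 1 point per M. fascicularis specimen. In the left panel all points lie below 0 except AIF1 in the batch 2 male, and in the right panel CD68 and CSF1R lie above 0 in all 4 specimens.

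The same lists set the members beside their neighbours in these fits. Of 37 other macrophage genes tested, 26 were lower in neuron-high spots and none higher (median -0.49), among them MS4A7, a tetraspan membrane protein of macrophages, which fell by 0.63 on the log2 scale, and MERTK, a receptor for apoptotic cells, which fell by 0.93 (edgeR adjusted p = 7.37e-06 and 2.40e-05). Of 15 MHC class II presentation genes 9 were lower and none higher, with HLA-DRA at a log2 fold change of -0.57 (adjusted p = 9.06e-06). CTSZ, in contrast, rose in neuron-high spots by 1.41 (SE 0.07, edgeR adjusted p = 4.52e-10), as did PLD3, a relative of PLD4, by 0.50 (SE 0.06, adjusted p = 7.84e-06). In connective-high spots 10 of 35 other macrophage genes were higher and none lower (median 0.62). As a share of UMIs, genes of other cells were also lower in neuron-high spots, with 11 of 11 tested myelin genes and 10 of 11 connective genes lower. No value per spot is given for these lists, and the part of these cells in the members' values was not tested.

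Before thinning, most pairs of members met in the same spots slightly more often than their separate frequencies gave. For each pair, the spots with a UMI of both were divided by the number expected if the genes fell independently among spots of like depth (10 bins by UMI total). Over the 15 pairs with at least 5 such spots expected in every specimen, the median of the mean ratios was 1.12, with a range of 0.962 to 1.30. In 12 of the 15 pairs the ratio was above 1 in all 4 specimens.

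CSF1R with C1QA gave 1342 spots against 1148 expected (ratio 1.17; mean over specimens 1.25 ± 0.177, SD, n = 4). AIF1 with C1QA gave 739 against 614 expected, with ratios between 1.16 and 1.23 in the 4 specimens. CD68 with CSF1R was 672 against 563, from 1.13 to 1.64. Over all specimens together, pairs with CD74 lay close to 1 (1.02 to 1.03), such as 3474 spots against 3388 expected for CD163 with CD74. CD74 was found in most tissue spots of batch 1, which leaves such a ratio little room above 1. In single specimens these pairs ran from 0.958 (CD68) to 1.24 (AIF1), and after thinning to 500 UMIs the ratios over all specimens were 1.08 to 1.26. CD68 with AIF1 was uneven, from 0.325 in the batch 2 male to 1.29 in the batch 2 female. With spots thinned to 500 UMIs the median ratio was 1.14 and single pairs ran from 0 to 3.49. Then 2 of the 15 pairs were above 1 in all 4 specimens, CD163 with C1QA (60 spots against 43.5 expected) and CSF1R with C1QA (49 against 28.3), while CD68 with CSF1R met in 10 spots against 11.6 expected and was above 1 in 1 of 4. Spots of a section are not replicates, and no test was made.

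Shares of spots with a UMI differed between specimens before and after thinning. CD74 was found in 68.2% ± 12.2 and 79.4% ± 3.81 of tissue spots in the batch 1 female and male (SD, n = 4 each), in 48.0% ± 4.76 in the batch 2 female (SD, n = 4) and in 15.8% ± 1.13 in the batch 2 male (SD, n = 3). After thinning to 500 UMIs the shares were 49.2%, 46.5%, 34.7% and 6.99%, in the same order of specimens. At least 3 members were met in 25.2% ± 14.2 of tissue spots in the female and 24.7% ± 6.01 in the male of batch 1 and in 16.2% ± 2.67 and 3.87% ± 0.140 in batch 2 (SD, n = 4, 4, 4 and 3). Off the tissue, where spots hold diffused RNA, CD163 was met in 0.254% to 2.21% of spots and CD74 in 10.3% ± 3.47 in the male of batch 1 (SD, n = 4).

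Spatial likeness between neighbouring spots was scored as Moran's I. Moran's I is near 0 for a scattered gene and positive where neighbours are alike, and the authors' deposited table holds it per section with an adjusted p-value. In the authors' deposited table CD74 had a median of 0.0706 over the 16 M. fascicularis sections, from -0.00632 to 0.351, and its adjusted p was under 0.05 in 12 sections. Those were all 8 of batch 1 and the 4 of the batch 2 female, and none of the batch 2 male. In that male the authors' deposited table gave CD163 scores of 0.00808 to 0.0423, against -0.00632 to 0.0186 for CD74. Over all genes and sections 16.2% of the authors' deposited scores passed.

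In the authors' deposited table CD163 passed in sections 1 and 2 of both batch 1 specimens, with scores of 0.0589, 0.215, 0.0604 and 0.0450, and in none of their sections 3 and 4, where scores were 0.000228, 0.0162, 0.00781 and 0.0142. These are the sections in which its counts were low. In batch 2 the authors' deposited table had it passing in 3 of 8 sections. By the authors' deposited table C1QA passed in 6 sections, CSF1R in 5, CD68 and AIF1 in 3 each, and CD180 and PLD4, listed in 9 sections each, in none.

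Recomputed from log-scaled counts with the 6 nearest spots, medians were 0.167 for CD74, 0.0819 for CD163, 0.0604 for CSF1R and 0.0449 for C1QA. The sum of the 8 genes reached 0.205 over 15 sections (0.0723 to 0.472), and without CD74 0.118 (0.0726 to 0.319). UMI depth also differs between neighbourhoods, and its part in these values was not tested.

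**Figure D5:**
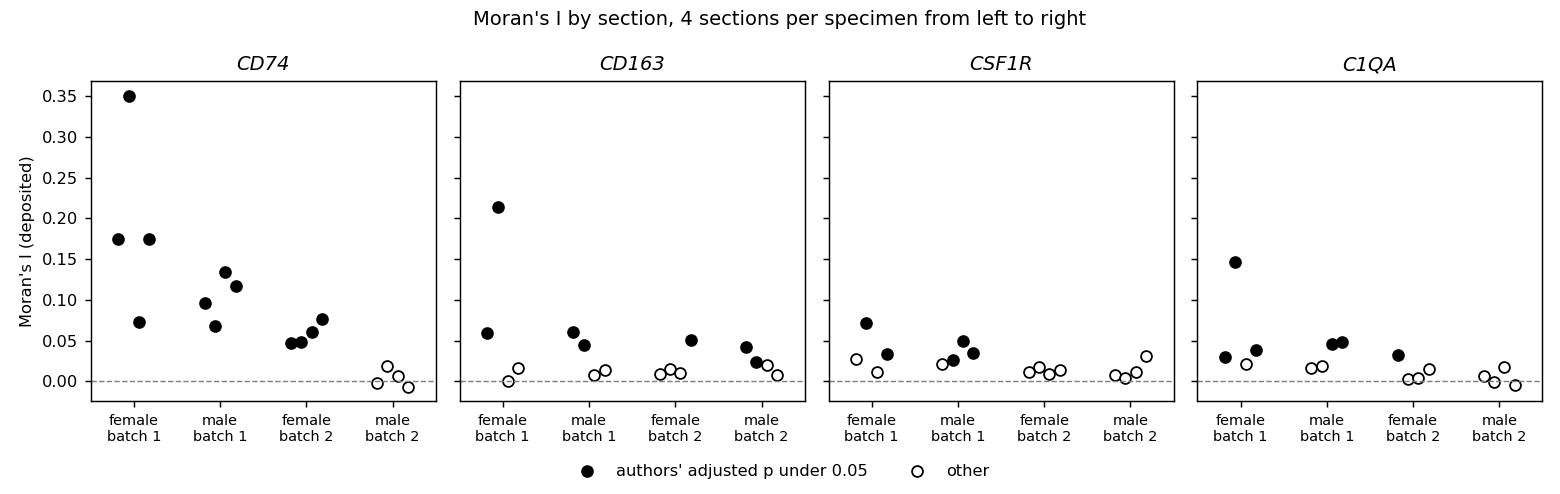
Moran's I as deposited by the authors (y axis) for CD74, CD163, CSF1R and C1QA in the 4 sections of each M. fascicularis specimen (x axis, sections 1 to 4 from left to right), filled where the authors' adjusted p is under 0.05. CD74 reaches 0.351 in batch 1 and lies between -0.00632 and 0.0186 in the batch 2 male, and CD163 is filled in sections 1 and 2 but not 3 and 4 of batch 1.

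The genes whose spot levels were most like the sum of the members were sought among 5085 genes detected in at least 2% of tissue spots of every section. By the mean correlation over 15 sections the first 3 were APOE, a lipid carrier of macrophages and satellite glia (r = 0.322), C1QC, the third chain of complement C1q (r = 0.290), and HLA-DRA, an MHC class II chain (r = 0.278). They were followed by SNCG, B2M, APOC1, PRPH, UBB, PSAP and CST3 (0.273 to 0.257), of which SNCG and PRPH are neuronal genes. The median over all 5085 genes was 0.0818, and the points share their section's libraries and depth. With CD74 left out of the sum, APOE (0.261), C1QC (0.260) and APOC1 (0.238) led, followed by the neuronal gene STMN2 (0.220) and HLA-DRA (0.214), and 4 of the first 10 were neuronal (STMN2, PRPH, TUBB3 and SNCG). HLA-DRA ran from 0.00740 to 0.580 between sections.

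Across labelled species, levels were set over the 13088 gene symbols shared by the 3 tables, with 1 specimen for each other label and no test. CD74 stood at 1565 and 1405 CPM in the sections labelled M. mulatta and 1759 and 2128 CPM in those labelled P. anubis. The 16 M. fascicularis sections of both batches ran from 127 to 2800 CPM. CD163 stood at 61.8 and 29.6 CPM (6 and 4 UMIs) in the sections labelled M. mulatta and at 97.9 and 59.7 CPM in those labelled P. anubis. Its M. fascicularis range over both batches was 25.6 to 564 CPM. The sections labelled M. mulatta and P. anubis are all of batch 2. In M. fascicularis the batch 2 sections held 127 to 1223 CPM of CD74, below all of these. For CD163 they held 294 to 564 CPM, above all of these.

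CD68 was counted 0 times in the sections labelled M. mulatta, which against the M. fascicularis mean of 46.6 ± 19.97 CPM (SD, n = 16) is at least 3.61-fold lower (3 counts over both sections). CSF1R had 3 UMIs there, a pooled ratio of M. fascicularis over these sections of 9.73 (95% interval 3.33 to 47.2, counting error only). PLD4 was higher, at 51.5 and 37.0 CPM from 5 UMIs each, against 0 to 6.69 CPM in M. fascicularis. At least 4-fold differences without overlap of sections were common for this label, at 34.2% of the 13088 genes (26.8% lower, 7.37% higher), and CD68, CSF1R and PLD4 showed one in the counts as they stand. That rule takes 0 as a value, and the counting limits above for CD68 (3.61) and CSF1R (3.33) lie under 4-fold. In the sections labelled P. anubis 0 of the 6 shared members reached this, against 15.8% of genes (7.59% higher, 8.22% lower). CD68 (73.4 and 44.97 CPM) and CSF1R (76.5 and 131 CPM) lay within the M. fascicularis range of both batches together. The higher value of each lay above the highest M. fascicularis section of batch 2 (67.1 and 118 CPM).

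C1QB, the second chain of C1q, was measured in these sections alone and reached 347 and 204 CPM over all features in those labelled M. mulatta and 210.1 and 196 CPM in those labelled P. anubis. C1QA, measured in the former, stood at 57.8 and 60.5 CPM, within the 23.8 to 137 CPM of M. fascicularis. AIF1, measured in the latter, stood at 60.5 and 26.0 CPM. In the sections labelled P. anubis, CSF1R with AIF1 met in 129 spots against 114 expected and CD163 with CSF1R in 158 against 140.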

How the data were processed

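Matrices of UMI counts for all spots were deposited by the authors, from Space Ranger 2.0.0 for batch 1 and the other labelled species and 2.1.0 for M. fascicularis batch 2, per the file headers. Mmul_10 is the genome build named in the submitters' processing notes, while the identifiers belong to other species, so no coordinates are given. Per section the authors also deposited Moran's I, a score, with its p-value and adjusted p-value, which were used as given. The annotation was not given in the sources used here.

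Counts of tissue spots were summed per specimen and tested with edgeR 4.0.16 (filterByExpr, TMM, quasi-likelihood, Benjamini-Hochberg over all features), with sex or batch as covariate or, for spot classes, specimen as a block. Nothing in the labels says that title codes are separate animals, so p-values hold for these specimens alone. For batch and sex they rest on the spread between the few summed specimens, with information on spread shared across features. For spot classes, with specimen as a block, they rest on how alike the difference was from specimen to specimen. Alternatives were DESeq2 1.42.0, limma 3.58.1 (voom), no filter, sections as samples, thinned sums and each section or specimen left out. Batch 1 by section pairs, distance from neuron-high spots and likeness without CD74 were added after seeing the data. In simulated counts on the batch design (12650 genes), 13% of genes changed 2-fold and 97% of those changed 4-fold were called. These counts had a single fixed dispersion and, apart from the changed genes, the same proportions in every specimen. The shares hold for that setting alone. CPM used all features of a section, Poisson or exact (Clopper-Pearson) intervals cover counting error at 95%, and a count of 0 was read as up to 3 counts.

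Ratios and log2 values were computed here from the deposited counts. The members, gene lists and comparisons were chosen with earlier results of these data known. All members are named; of other lists at most 3 genes with the lowest p in the batch and neuron-high fits, and the 10 genes most like the members' sum. Part of the complement list is not reported here.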

Additional observations from a re-analysis of the deposited data

Results flagged for a closer look

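Groups of 4 sections were searched for a section far from the other 3 (Dixon's criterion at 95%), in 30 combinations of member and specimen, of which 4 stood out; chance alone marks about 1 in 20. AIF1 in section 3 of the batch 2 female stood at 28.0 CPM against 16.7 to 18.4 CPM in the others. PLD4 in section 2 of the batch 1 male stood at 3.51 CPM against 2.21 to 2.42 CPM. CD180 (0.195 CPM, section 4) and PLD4 (0.178 CPM, section 2) in the batch 2 female each stood out through a single UMI against 0 in the other sections.

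In batch 2 the female and the male specimen moved in opposite ways in 2 spatial comparisons, with every section of each on its side. The difference itself was not tested, and 1 specimen stands for each sex. AIF1 had a log2 ratio of 1.45 in connective-high over other spots in the female and -0.76 in the male. CSF1R had a log2 ratio of 0.25 in myelin-high over other spots in the female and -0.57 in the male, each over 4 female and 3 male sections. Counts were low: connective-high spots held 45 AIF1 UMIs in the female and 16 in the male. Myelin-high spots held 61 and 22 CSF1R UMIs.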

How the results depend on the processing

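For batch 2 against batch 1, where 364 features and 4 members were called, 1279 features were called with no filter, 4345 with sections as samples, 196 without sex as a covariate, 577 with thinned sums and 656 with batch 1 by its sections 3 and 4 alone, and leaving out 1 section or specimen gave 115 to 6849 features and 2 to 8 members. CD68 reversed to 0.18 with sections 3 and 4 alone, to 0.05 without section 1 of the batch 2 male, and to 0.12 without the batch 1 female and 0.52 without the batch 2 male (range -0.90 to 0.52). For male against female, with 0 features and members called, no filter gave 67 features and 1 member, sections as samples 8, and leaving out 1 section or specimen 0 to 5 features and 0 members. Without a specimen these fits also had no covariate. CD74 reversed to 0.26 without the batch 2 male (range -2.84 to 0.26). The section number as a replicate block gave 4448 features for batch and 5 for sex. Same-numbered sections deviated together in all 4 pairs of the batch 1 specimens (r 0.22 to 0.50). They did not in batch 2 (-0.11 to -0.01) or in every pair across batches (-0.17 to 0.28). In no pair of specimens did every section correlate best with its own number, and between the batch 1 specimens 0 sections did. There, section 1 went with section 2 of the other specimen (0.51 and 0.47) and 3 with 4 (0.59 and 0.46). Sections 1 and 2 against 3 and 4 gave -0.61 to -0.17. The shared deviation in batch 1 thus followed these section pairs and not the single numbers. Without the specimen block, neuron-high spots gave 180 features and 0 members, myelin-high 492 features, and connective-high 299 features and 0 members. DESeq2 gave 3345 neuron-high features. With at least 1000 UMIs per spot, 1766 features and 2 members were called in myelin-high spots; with sections as samples, 3 members there, and 5079 features and 4 members in connective-high spots. Leaving out specimens gave 3478 to 5406 features and 5 to 6 members (neuron-high), 2080 to 4594 and 0 (myelin-high) and 1033 to 4940 and 1 to 2 (connective-high). The members' median Moran's I was 0.0133 as deposited and 0.0371 recomputed. The cause of these shifts was not tested.

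Depth limits the shallow sections labelled M. mulatta, where 10 or fewer UMIs stand behind CD163, CSF1R, CD68 and PLD4, and CD180 and PLD4 everywhere. In simulated counts with a single fixed dispersion, 13% of 2-fold changes were called in the batch design, 32% in the sex design and 70% in the neuron-high design.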
